A study of Homo sapiens with 2 samples.

Results

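Nuclear receptors and their coregulators were examined in Hep3B, a human hepatocellular carcinoma cell line, after miR-19b was inhibited. The genes were chosen by name from the receptor superfamily, 43 in all of the 18821 genes that the array annotation names. The rule used no measured value, though earlier results of these data were known when it was set. A total of 37 genes had a named probe and a measurable ratio. The other 6 (NR1H2, NR1H4, NR1I2, NR2F2, NCOA3 and NCOR1) had no named probe in the annotation and were not analysed here. The comparison asked how the mRNA of these genes differed between Hep3B cells transfected with a miR-19b inhibitor (anti-miR-19b) and Hep3B cells transfected with a control, at 90 pmol per well, with RNA collected 24 h later. The data hold 1 array for each condition and no replicate, so no test could be made here and every value below describes these 2 arrays. How many hybridizations lay behind each value was not given. All cells came from a single line, and the labels do not say whether separate cultures were pooled. Fewer cells that express a gene and less of its RNA per cell cannot be told apart in such bulk RNA.

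Nuclear receptors are transcription factors, most of which bind a small lipophilic ligand and then exchange corepressors for coactivators on DNA. Steroid receptors act mainly as homodimers, whereas the receptors for fatty acids, oxysterols, bile acids, xenobiotics, retinoids, thyroid hormone and vitamin D pair with a retinoid X receptor. Orphan receptors lack a known physiological ligand, or were named before one was found. In hepatocytes these factors control bile acid, lipid, glucose and drug metabolism, and several of them cycle with the circadian clock.

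The inhibitor was directed at miR-19b, whose mature form is encoded on chromosomes 13 and X. It shares its seed, the stretch of bases 2 to 8 that pairs with target mRNAs, with miR-19a. Both are shown from the RefSeq annotation (GRCh38.p14), with the seed in capitals, because the seed defines which messages are candidate targets; ESR1 is a reported target of this family among the genes described here.
hsa-miR-19b-3p: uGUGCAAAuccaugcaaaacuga
hsa-miR-19a-3p: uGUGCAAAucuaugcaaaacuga
The 2 sequences are each 23 bases long and differ only at base 11, counted from the 5′ end (C11U, miR-19b first). The array does not read either mature microRNA.

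The normalized intensities had a median of 28.1 with anti-miR-19b and 26.05 in the control, and 26186 of the 29187 probes were above 0 on both. Probes whose mean log2 level reached the median of those probes, an intensity of 41.4, are called bright and the others dim. Scatter depended on brightness: the distance from percentile 16 to 84 of the log2 ratio, divided by 2, was 0.26 for bright and 0.87 for dim probes. All 8 markers of hepatocyte-derived carcinoma that were examined, among them AFP and ALB, had a bright probe. Of 14 markers of leukocytes, endothelial cells, stellate cells or fibroblasts, and cholangiocytes, 5 had a bright probe (CD68, CD14, CDH5, COL1A1 and SOX9), with log2 ratios between -0.24 and -0.05.

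No bright probe of the 37 measured genes differed by 1.5-fold between the arrays. The 61 probes of the 37 genes comprised 35 bright probes, in 26 genes, 23 dim probes and 3 probes without a ratio. Among the 35 bright probes 0 were over 1.5-fold higher and 0 over 1.5-fold lower with anti-miR-19b, where 2.41% and 1.05% of all bright probes on the array were. Their log2 ratios, anti-miR-19b over control, ran from -0.45 to 0.49. Of the 23 dim probes, 5 were over 1.5-fold higher and 6 lower, beside 25.1% and 22.9% of all dim probes. These shares are near or below those of the whole array, so the counts single out nothing about the receptors.

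**Figure D1:**
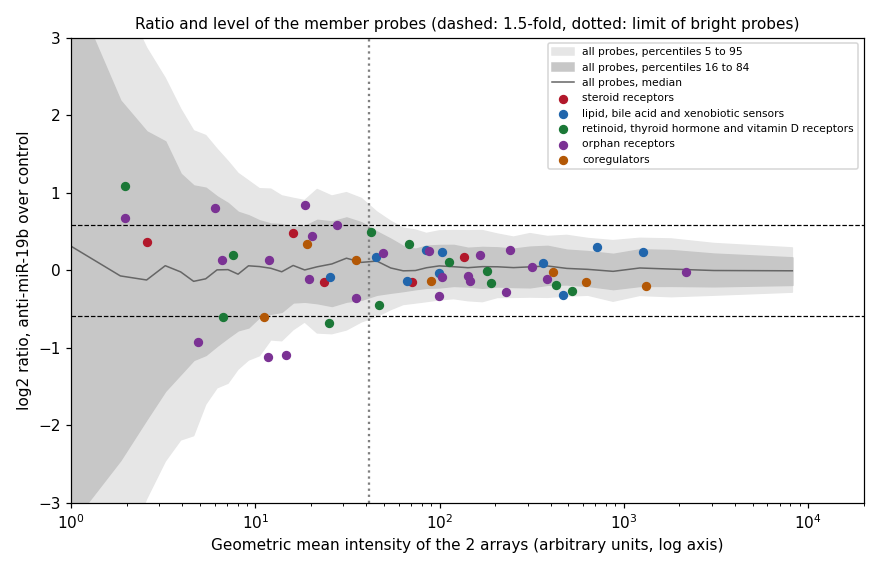
Log2 ratio (anti-miR-19b over control) of each member probe against its geometric mean intensity on the 2 arrays (log axis, arbitrary units), coloured by receptor group, over grey bands for all probes of like level (percentiles 16 to 84 and 5 to 95). All 35 bright member probes, right of the dotted line, lie between the dashed 1.5-fold lines, and the 11 member probes beyond them are dim.

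Counted by gene, as the mean over all probes of the gene with a ratio, 2 members were over 1.5-fold higher (RXRG and NR6A1), 2 were over 1.5-fold lower (NR1D2 and NR2F6), and 33 were within 1.5-fold. The shares over all 17438 genes measured were 12.4% higher and 10.8% lower. All 4 of these members were read by dim probes alone. The median log2 ratio of the 37 members was -0.01, against 0.03 for all genes. Of the 35 bright member probes, from 26 genes, 15 were above 0, or 42.9%, compared with 53.9% of all bright probes. Their median was -0.03, against 0.03. The scatter of 0.26 for bright probes is that of single probes and does not measure the error of a median. With 1 array per condition, whether this gap would recur cannot be told.

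Since a replicate error was lacking, each ratio was set beside the 500 probes nearest to it in level. Their range from percentile 16 to 84 leaves 32% of probes outside by construction. Of the bright member probes 9, or 25.7%, lay outside, 2 above (a probe each of PPARA and THRB) and 7 below (a probe each of PPARA, THRA, NR4A1, ESRRA and NRIP1, and both of RXRA). Probes of the same gene on the same 2 arrays showed how far probes disagree, which is not the error between replicates. In 7 members with over 1 bright probe, the highest and lowest ratios lay a median of 0.17 log2 units apart, and they had the same sign in 4 and opposite signs in 3. Across 1629 genes with exactly 2 bright probes the median distance was 0.24. Most of the member ratios below are of this size.

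Steroid receptors translocate or act on DNA upon binding of cortisol, aldosterone, estrogen or progesterone. NR3C1, the glucocorticoid receptor, was at 144 with anti-miR-19b and at 128 in the control by its bright probe, a log2 ratio of 0.17. Its dim probe read 2.94 with anti-miR-19b and 2.28 in the control. ESR1, estrogen receptor alpha, read 67.1 with anti-miR-19b and 74.3 in the control at its only probe, a log2 ratio of -0.15 that lay within the range of probes of like level (-0.26 to 0.28). The probe of this reported miR-19 target was thus not higher when miR-19b was inhibited. The remaining steroid receptors were dim: NR3C2, the mineralocorticoid receptor, read 18.99 with anti-miR-19b and 13.6 in the control (0.48), and PGR, the progesterone receptor, 22.5 with anti-miR-19b and 24.8 in the control (-0.14). The median over the 4 genes was 0.06.

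**Figure D2:**
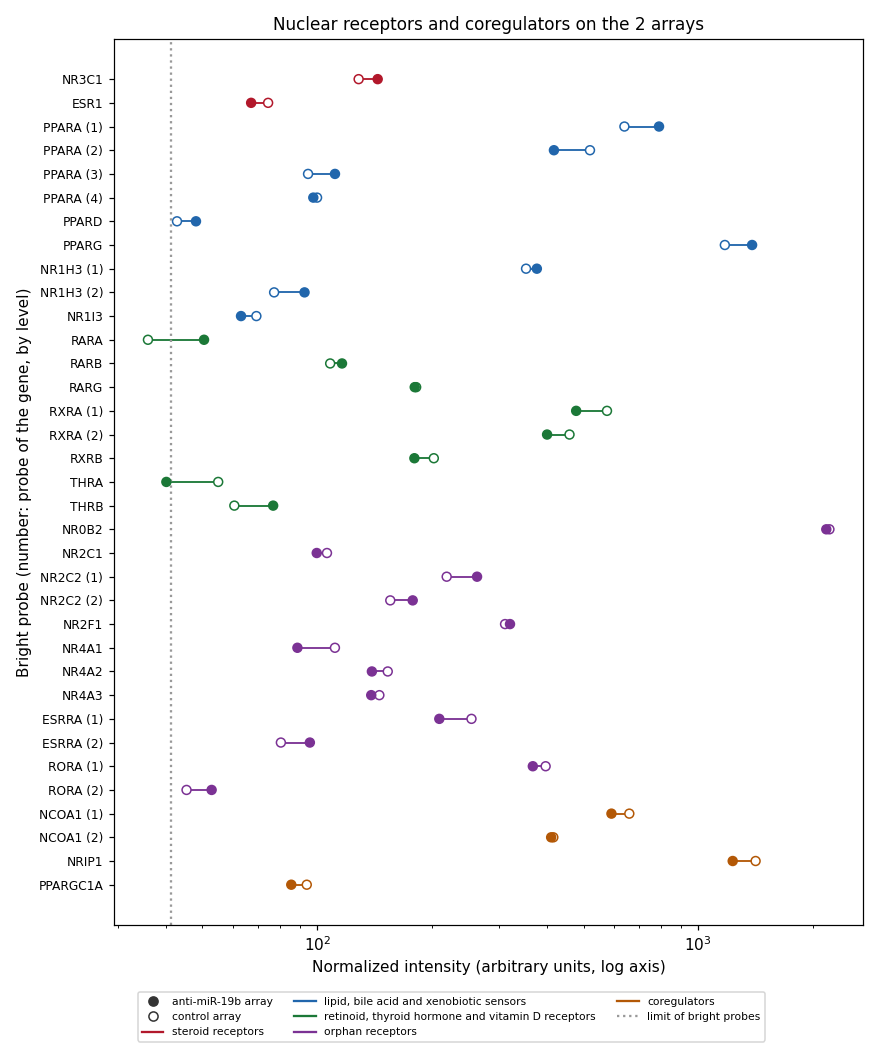
Normalized intensity (log axis, arbitrary units) of each bright member probe with anti-miR-19b (filled) and in the control (open), coloured by receptor group, with probes of a gene numbered from the highest level down. The markers of each pair lie close together, the widest gaps being those of RARA (50.5 with anti-miR-19b, 36.0 in the control) and THRA (40.2 and 55.0).

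The sensors of lipids, bile acids and xenobiotics were the group with the most bright probes relative to their number, 9 of 10 probes with a ratio, in 5 genes. PPARG, the regulator of fat cell differentiation and lipid storage, had an intensity of 1384 with anti-miR-19b and 1174 in the control (log2 ratio 0.24). PPARA, which drives fatty acid oxidation in the liver, was read by 4 bright probes that did not move together. They read 789, 418, 111 and 97.7 with anti-miR-19b, against 640, 520, 94.6 and 99.9 in the control, with log2 ratios of 0.30, -0.31, 0.23 and -0.03. The mean for PPARA was 0.05 ± 0.28 (SD over 4 probes, which are not replicates), so the probes of this single gene spanned about as wide a range as most of the other members. PPARD, the broadly expressed form, read 48.1 with anti-miR-19b and 42.9 in the control at its bright probe. NR1H3, liver X receptor alpha, a sensor of oxysterols, read 377 and 92.6 with anti-miR-19b, against 353 and 77.1 in the control, with log2 ratios of 0.09 and 0.27. NR1I3, the constitutive androstane receptor of drug metabolism, was the member of this group below 0, at 63.1 with anti-miR-19b and 69.2 in the control (-0.13), and its second probe was below 0 on both arrays and had no ratio. The median over the 5 genes was 0.05 from all probes and 0.17 from bright probes alone, with 4 above 0 and 1 below in both cases.

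Retinoid X receptors, the common partners of the group above, were lower with anti-miR-19b at each bright probe, by less than 1.5-fold. RXRA read 478 and 401 with anti-miR-19b, against 576 and 459 in the control, with log2 ratios of -0.27 and -0.20. RXRB read 179.9 with anti-miR-19b and 202 in the control (-0.17). Both RXRA probes lay just below the range of probes of like level, and the RXRB probe lay inside it. RXRG, which is largely a receptor of muscle and brain, was near the floor, at 2.86 with anti-miR-19b and 1.34 in the control at its single measurable probe. That gave a log2 ratio of 1.09, in a range where probes of like level spread from -2.26 to 2.09. The other RXRG probe read 3.03 with anti-miR-19b and was below 0 in the control.

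Retinoic acid receptors bind all-trans retinoic acid and induce its breakdown enzymes. RARA had the highest ratio of any bright member probe, 0.49, from 50.5 with anti-miR-19b and 36.0 in the control, which was within the range at that level (-0.36 to 0.56). RARB read 116 with anti-miR-19b and 108 in the control (0.10), and RARG, the form best known in skin, 180.3 and 181.8 (-0.01). The 3 receptors did not share a direction. Thyroid hormone receptors differed from each other as well. THRA had the lowest ratio of any bright member probe, -0.45, at 40.2 with anti-miR-19b and 55.0 in the control. THRB, the main form in hepatocytes, read 76.6 with anti-miR-19b and 60.6 in the control at its bright probe (0.34). Its 2 dim probes read 19.7 and 5.43 with anti-miR-19b, against 31.6 and 8.24 in the control (-0.68 and -0.60), so the gene mean of -0.31 has the opposite sign to the bright probe. THRA and NR1D1 overlap on opposite strands of their locus, and whether their probes tell these transcripts apart was not tested. VDR, the vitamin D receptor, was dim, at 8.04 with anti-miR-19b and 7.03 in the control. The median over the 9 receptors of retinoids, thyroid hormone and vitamin D was -0.01.

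**Figure D3:**
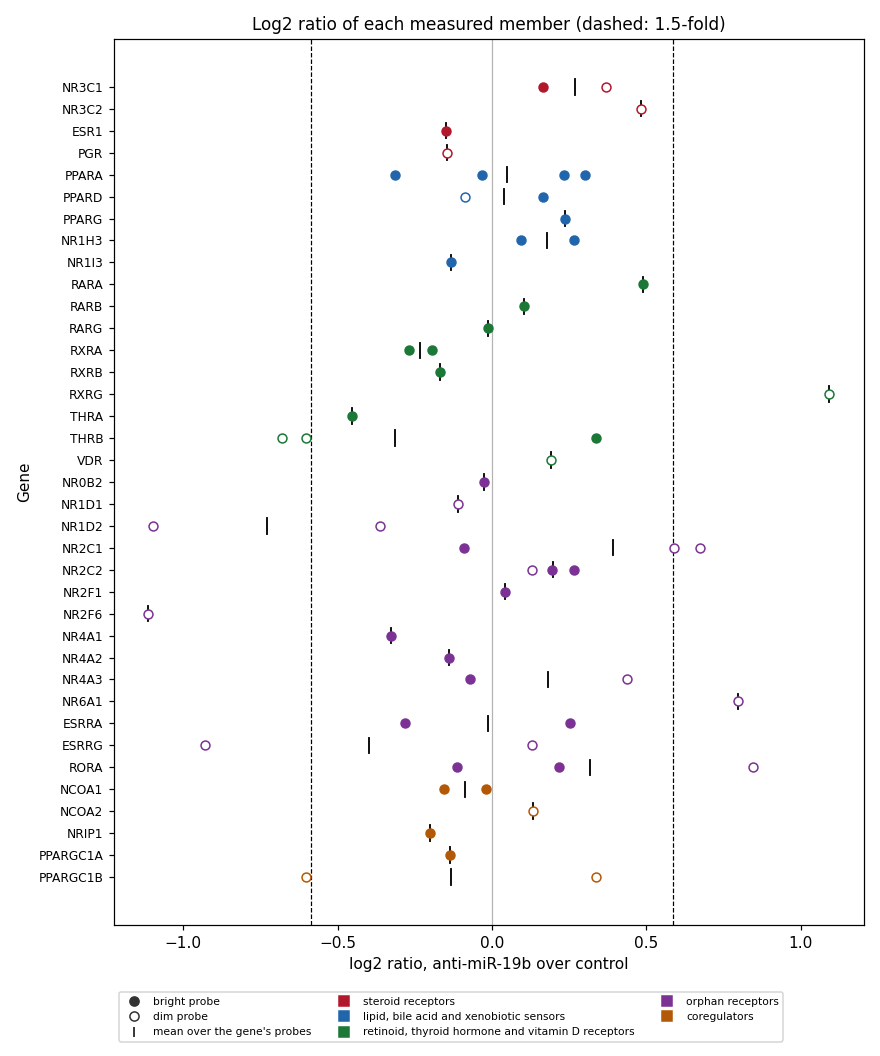
Log2 ratio (anti-miR-19b over control) of each of the 37 measured members by probe (filled, bright; open, dim), with a black tick at the gene mean and dashed lines at 1.5-fold. The means of NR1D2 and NR2F6 lie beyond the left line and those of RXRG and NR6A1 beyond the right, each from open symbols alone.

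Orphan receptors formed the largest group, 14 measured genes of 15, with a median of -0.02. NR0B2 (SHP), which lacks a DNA-binding domain and represses bile acid synthesis after induction by the bile acid receptor, was the member probe with the highest intensity, and was close to equal at 2167 with anti-miR-19b and 2208 in the control (-0.03). NR4A1, NR4A2 and NR4A3 are immediate early genes whose activity is set by their amount rather than by a ligand. NR4A1 read 88.7 with anti-miR-19b and 111 in the control (-0.33), NR4A2 139 and 153 (-0.14), and the bright NR4A3 probe 139 and 146 (-0.07). The bright probe of each was thus below 0, and that of NR4A1 lay under the range at its level (-0.21 to 0.32). The dim NR4A3 probe went the other way, at 23.6 with anti-miR-19b and 17.4 in the control (0.44).

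NR2C2, the testicular receptor TR4, was higher by a small amount at every probe, with 263, 178 and 12.5 for anti-miR-19b, against 219, 155 and 11.4 for the control. Its paralogue NR2C1 (TR2) read 99.7 with anti-miR-19b and 106 in the control at its bright probe (-0.09), while its dim probes read 33.95 and 2.46 with anti-miR-19b, against 22.6 and 1.54 in the control (0.59 and 0.67). NR2F1 (COUP-TFI), a regulator of development, read 321 with anti-miR-19b and 311 in the control (0.04). These values do not separate from the scatter at their levels.

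ESRRA, the estrogen-related receptor that drives mitochondrial genes together with PPARGC1A, was read by 2 bright probes of opposite sign. They gave 209 and 95.7 with anti-miR-19b, against 254 and 80.3 in the control, for log2 ratios of -0.28 and 0.25. The mean was -0.01 ± 0.38 (SD over 2 probes). RORA, which activates the elements that the REV-ERB receptors repress, read 368, 52.8 and 25.0 with anti-miR-19b and 398, 45.4 and 13.9 in the control. Its ratios increased as the probes became dimmer, at -0.11, 0.22 and 0.85, and the highest came from the dim probe. At both genes the probe chosen sets the direction.

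The 3 member coregulators with a bright probe were below 0 there. NRIP1 (RIP140), a corepressor of metabolic receptors, read 1231 with anti-miR-19b and 1414 in the control (-0.20), just under the range at its level (-0.197 to 0.256). NCOA1 (SRC-1), a coactivator that acetylates histones, read 592 and 411 with anti-miR-19b, against 659 and 416 in the control (-0.16 and -0.02). PPARGC1A (PGC-1 alpha), the coactivator of mitochondrial biogenesis and gluconeogenesis, read 85.5 and 93.9 (-0.14). All 4 probes of the 3 genes were thus lower with anti-miR-19b, NRIP1 by the largest ratio. Those of NCOA1 and PPARGC1A lay inside the range at their level. Of 16 coregulators outside the members with a bright probe, 9 were above 0 and 7 below. The dim members were NCOA2 (SRC-2), at 36.9 with anti-miR-19b and 33.6 in the control, and PPARGC1B, with dim probes at 21.4 and 9.04 with anti-miR-19b, against 16.9 and 13.7 in the control (0.34 and -0.60). The median over the 5 measured coregulators was -0.13.

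Members with dim probes alone numbered 11, with 14 dim probes at intensities of 2.86 to 36.9 for anti-miR-19b and 1.34 to 39.9 for the control. The members over 1.5-fold came from these. NR2F6 (EAR2), an orphan repressor, read 7.95 with anti-miR-19b and 17.2 in the control, a log2 ratio of -1.11 that was below the range of probes of like level (-0.57 to 0.61). NR6A1, the germ cell nuclear factor, read 7.92 with anti-miR-19b and 4.55 in the control (0.80), inside its range (-1.02 to 0.96). ESRRG, a relative of ESRRA, had dim probes at 6.89 and 3.52 with anti-miR-19b, against 6.30 and 6.70 in the control (0.13 and -0.93). With 50 added to both intensities, NR2F6, NR6A1 and ESRRG did not pass 1.5-fold. Readings this low could not do so whatever their ratio, so the offset says nothing about these 3 genes.

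NR1D2 (REV-ERB beta) was the only member over 1.5-fold with more than 1 measured probe. It is a heme-binding repressor of the circadian clock, as is NR1D1 (REV-ERB alpha), and both are themselves driven by the clock activators through E-boxes. The NR1D2 probes read 31.1 and 10.01 with anti-miR-19b, against 39.9 and 21.4 in the control, with log2 ratios of -0.36 and -1.10. NR1D1 read 18.9 with anti-miR-19b and 20.4 in the control (-0.11). All 3 REV-ERB probes were dim and below 0, and only the dimmer NR1D2 probe lay under the range at its level.

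The promoter of NR1D2 is shown because E-boxes lie in it, with each E-box (CACGTG, the same on both strands) in capitals. The window runs from 250 bases before to 50 after an annotated start, on the plus strand at chr3:23945871-23946170 (RefSeq, GRCh38.p14).
NR1D2: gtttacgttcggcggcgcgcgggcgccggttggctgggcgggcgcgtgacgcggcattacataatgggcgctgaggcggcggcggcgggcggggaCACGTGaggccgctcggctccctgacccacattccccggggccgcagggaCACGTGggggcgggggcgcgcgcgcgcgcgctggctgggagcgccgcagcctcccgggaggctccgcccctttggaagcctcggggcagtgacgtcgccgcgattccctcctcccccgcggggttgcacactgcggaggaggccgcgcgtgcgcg
The window holds 2 E-boxes. Of 35116 promoter windows of 300 bases, 7.26% hold at least 1 and 0.664% hold 2 or more. A further annotated NR1D2 window and the NR1D1 window hold none, which says only that these letters are not in those windows.

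The 8 targets of the REV-ERB and ROR receptors had a median of 0.07. Of them 2 were over 1.5-fold lower, both at dim probes, beside 10.8% of all genes and 22.9% of all dim probes. These were DBP, a transcription factor of clock output, at 16.4 and 6.86 with anti-miR-19b, against 19.96 and 13.2 in the control, and CIART, a repressor of the clock activators, at 27.99 and 2.09 with anti-miR-19b, against 34.02 and 8.64 in the control. Other genes of the clock were then read beside the REV-ERB genes, a grouping made after the values were seen, so it carries no test. The first set, DBP, CIART, PER1, PER2 and both REV-ERB genes, does not share 1 role, since DBP belongs to clock output and CIART is a repressor. It had 9 probes, of which 2 were bright and 4 lay under the range at their level. All 9 were below 0, with a median of -0.36, but the set was formed with the values in view. PER1 read 264 with anti-miR-19b and 362 in the control (-0.46), PER2 217 and 238 (-0.13), and these were the bright probes. The second set, the activators BMAL1, CLOCK and NPAS2 with CRY1 (0.22) and NFIL3, had 6 bright probes from -0.03 to 0.48, of which 4 were above 0. Canonical E-box genes outside those lists were read last. Of 7 probes of PER3, CRY2, TEF, HLF, BHLHE40 and BHLHE41, 4 were below 0 and 3 above. The bright ones, of HLF and BHLHE40, gave 0.05 and 0.26. An E-box stood in a window of 3 of the 6 genes of the first set, 0 of the 5 of the second and 3 of the 6 of the last. Some genes have over 1 window, so these counts are unlike the share of windows given above. Whether E-boxes bear on the ratios was not tested.

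**Figure D4:**
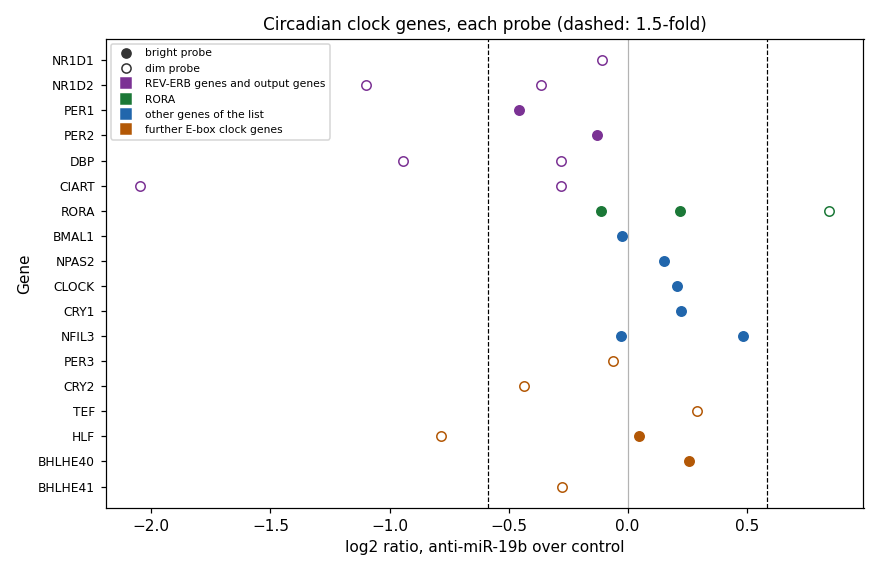
Log2 ratio (anti-miR-19b over control) of each probe of circadian clock genes (filled, bright; open, dim), with dashed lines at 1.5-fold. The set marked as REV-ERB genes and output genes (purple, 9 probes) also holds the repressor CIART, with PER1 and PER2. Its probes lie left of 0, but 2 alone are bright and 4 alone lie under the range at their level. The activators and other genes of the list (blue, 6 probes) run from -0.03 to 0.48, and the further E-box genes (orange) lie on both sides. The sets were formed with the values in view.

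Target genes of the receptors were read as lists from general knowledge of each pathway. Beside the counts of each list below, 12.4% of all genes were over 1.5-fold higher and 10.8% lower. Among 10 measured targets of PPARA, 1 was over 1.5-fold higher and 2 lower, each through dim probes, with a median of -0.04. The bright ones with the largest ratios were ACADM, a dehydrogenase of fatty acid oxidation, at 0.34, CPT1A, which admits fatty acids to mitochondria, at 0.24, CREB3L3 at 0.23 and PLIN2, a lipid droplet coat protein, at -0.19. Of 6 measured LXR targets, with a median of -0.26, MYLIP alone passed 1.5-fold, being lower at a dim probe. The lipogenic enzymes FASN and SCD went apart, at 1751 with anti-miR-19b and 2297 in the control for FASN (-0.39), and 680 and 531 for SCD (0.36). ABCA1 and SREBF1 were at -0.14 and -0.13. The 8 FXR targets had a median of 0.15, but -0.16 over the 6 with a bright probe. Among them SLC51A, a subunit of the bile acid exporter of the basolateral membrane, read 26.1 with anti-miR-19b and 67.8 in the control. Its log2 ratio of -1.38 came from 1 probe, and its partner subunit SLC51B was at 198 and 189 (0.07). SDC1, KNG1 and FETUB were at -0.20, -0.19 and -0.14.

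The 5 measured targets of PXR and CAR were all within 1.5-fold, with a median of -0.03. CYP3A4, the main drug-oxidizing P450, read 42.1 with anti-miR-19b and 54.8 in the control at its bright probe (-0.38), the canalicular transporter ABCC2 was at -0.24 and ALAS1, the first enzyme of heme synthesis, at 0.06. Of 6 retinoic acid targets 1 was lower, STRA6 at dim probes. CYP26B1, which degrades retinoic acid, read 159 with anti-miR-19b and 208 in the control (-0.38), and TGM2 and DHRS3 were at 0.11 and -0.04.

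Of 11 glucocorticoid receptor targets 1 was over 1.5-fold higher, SGK1 at a dim probe. FKBP5, an inhibitory cochaperone of the receptor, read 127 with anti-miR-19b and 79.3 in the control at its bright probe (0.68), but 34.8 and 45.9 at the dim one (-0.40). PER1, which is also induced by glucocorticoids, was lower as given above, and IGFBP1 and PCK1 were at 0.23 and 0.16. The list had no common direction, with 7 of 11 above 0. Of 7 estrogen receptor targets GREB1 alone passed 1.5-fold, through a probe near the floor, at 4.52 with anti-miR-19b and 0.067 in the control. CCND1 (cyclin D1) read 1819 with anti-miR-19b and 2423 in the control (-0.41), and XBP1, CTSD and PDZK1 were at 0.18, -0.18 and 0.09. Among 6 targets of thyroid hormone and vitamin D, with a median of 0.39, THRSP was higher and DIO1 lower, both at dim probes, and ME1, the cytosolic malic enzyme, was higher at both of its bright probes, at 1269 and 385 with anti-miR-19b, against 992 and 257 in the control (0.35 and 0.58). KLF9 was at 0.06.

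Receptors and coregulators outside the 43 genes were read as well. Of 8 other receptors measured, 5 were over 1.5-fold higher and 0 lower, all at dim probes, and the median of 0.97 was 0.12 over the pair with bright probes. Over all genes 12.4% were higher and 10.8% lower, and 25.1% of all dim probes were higher. Of the 5, ESR2 (3.40 with anti-miR-19b, 0.47 in the control), RORB and NR2E3 lay inside the range at their level. NR5A1 (15.6 and 6.90) and NR2E1 (11.5 and 3.41) lay above it. HNF4G, a relative of the hepatocyte factor HNF4A, was read by 2 bright probes at 150 and 130 with anti-miR-19b, against 90.7 and 111 in the control (0.72 and 0.24), so that 1 of them passed 1.5-fold while the gene mean did not. NR5A2 (LRH-1), a regulator of bile acid synthesis, was at -0.24. Of 17 other coregulators 1 was over 1.5-fold higher and 2 lower, beside the same 12.4% and 10.8% of all genes. Their median was -0.02. At bright probes HDAC3 and TBL1X, both parts of the corepressor complex that binds unliganded receptors, went apart, with 134 and 100.1 for HDAC3 (0.42) and 1857 and 2503 for TBL1X (-0.43), anti-miR-19b first. PNRC1 was at 0.44 and PELP1 at -0.25.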

How the data were processed

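RNA of Hep3B cells given anti-miR-19b or a control was labelled with 1 dye (Cy5 per the labels, fluorescein per the methods) and hybridized to Human OneArray. The deposited values are normalized intensity on a linear scale, 1 for each probe of an array, and some are below 0. For the normalization, the software and the number of hybridizations, details were not given in the sources used here. Of 29187 probes, 25053 had 1 gene symbol, 0 several and 4134 none. Symbols were updated by gene ID, of which 24981 were found in RefSeq (GRCh38.p14).

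The log2 ratio was computed for the 26186 probes above 0 on both arrays, and a gene was the mean of its probes. The threshold was 1.5-fold. With 1 array per condition no p-value was computed, and the number of arrays limits precision. The members, lists and alternatives were chosen with earlier results of these data known. Members with a bright probe or over 1.5-fold at any probe were named, the others given by range or value. Of each other list, up to 4 genes with a bright probe and the largest absolute ratio were named, while MYLIP, STRA6, SGK1, GREB1, THRSP, DIO1 and SLC51B were named, and the clock grouping and the E-box search chosen, with their values in view. Alternatives comprised median centring, quantile normalization, removal of a loess trend (fraction 0.3), bright probes alone, an offset of 50, the brightest probe of a gene and a 2-fold threshold. The steps were tested on simulated data. Python 3.11.15, numpy 2.4.6, pandas 2.3.3, statsmodels 0.14.6 and matplotlib 3.10.9 were used.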

Additional observations from a re-analysis of the deposited data

How the results depend on the processing

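No paired analysis was possible because there was 1 array for each condition, and no array could be left out. Under all 7 alternatives, 0 bright member probes passed the threshold, and with the offset of 50 the largest bright ratio was 0.28 in size. Counts of members higher and lower were both 0 for genes and probes with bright probes alone and with the offset. For bright probes alone this follows from the bright ratios already given, and the offset shrinks the ratios of dim probes most. At 2-fold, 1 gene was higher and 1 lower, with 1 probe higher and 2 lower. With quantile normalization 3 probes were higher in place of 5, and at the brightest probe of each gene 1 gene was lower in place of 2. The median over the members stayed between -0.063 and -0.0085. List medians were counted as moved when they shifted by over 0.1. With bright probes alone they were 0.17 for lipid, bile acid and xenobiotic sensors, 0.16 for PPARA targets, -0.13 for LXR, -0.16 for FXR, and -0.24 for PXR and CAR targets, 0.18 for REV-ERB and ROR targets, 0.26 for thyroid hormone and vitamin D targets and 0.12 for other receptors. With the offset they were -0.11 for LXR, 0.028 for FXR, and 0.11 for thyroid hormone and vitamin D targets, and 0.11 for other receptors. At the brightest probe they were 0.17 for the lipid sensors, 0.10 for retinoid, thyroid hormone and vitamin D receptors, 0.064 for PPARA and -0.036 for FXR targets, and 0.60 for other receptors. The cause was not tested. Median centring and removal of the loess trend moved no list median by over 0.1, and both left 4 member probes higher in place of 5.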
